A study of Mus musculus with 12 samples.

Results

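Imprinted genes are expressed mainly from the allele inherited from 1 parent, and 32 of them were followed here in F9 cells, a mouse teratocarcinoma line that resembles early embryonic stem cells and turns toward primitive endoderm when given retinoic acid (RA). The 32 were listed by name, and each was read from the probe set that the platform annotation assigns to its symbol alone, taking the one with the highest mean log2 signal where there were several. Of the 32, 30 could be measured among 18193 genes. By known biology, 19 are expressed from the paternal allele, 9 from the maternal allele, and 2 (Grb10 and Gnas) from an allele that depends on tissue or promoter. Ube3a, imprinted in neurons, is counted as maternally expressed. The signals do not tell the alleles apart, so the expressed allele in F9 cells was not measured. The only probe set naming H19, the maternally expressed long noncoding RNA next to Igf2, also names Mir675, and no listed probe set names Zrsr1, a paternally expressed splicing factor gene, so both were not analysed here. Snrpn was read from a single probe set, because 6 others also name Snurf.

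The choice of allele is set in the germ line by DNA methylation or histone marks at imprinting control regions, and it is kept through early development by proteins such as ZFP57 and TRIM28 together with maintenance DNA methylation. Many paternally expressed genes promote growth of the embryo and placenta, and many maternally expressed genes restrain it. Imprinted genes lie in clusters in which 1 control region governs several genes, and long noncoding RNAs such as H19, Meg3 and Kcnq1ot1 mark such clusters.

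The arrays covered 4 groups of 3: wild-type F9 cells in ethanol vehicle (WT vehicle), wild-type cells in 1 µM RA (WT RA), and cells labelled RAR gamma knockout (KO) in vehicle (KO vehicle) or in 1 µM RA (KO RA), all for 24 hours. RAR gamma is a nuclear receptor for RA. The labels say neither from how many clones the KO cells came nor whether replicates were separate cultures, so each p-value measures the spread between these arrays, which may be technical. The values are MAS5 signals, and the number of arrays, not sequencing depth, limits their precision.

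Several features of the arrays touch the results. Each of 3 hybridization batches (arrays that share a recorded hybridization time) held 1 array of every group, with replicate 3 of each group in batch 1, and same-batch arrays of different groups deviated together (r of 0.094 to 0.457 over 18 pairs, against -0.353 to 0.254 over 36 pairs from other batches), so a fit with the batch as a block was run beside the fit without it. The arrays came from 2 chip lots, with all 3 WT vehicle arrays from lot 1 and KO vehicle replicates 1 and 2 from lot 2. Lot and genotype were thus partly confounded in vehicle. KO vehicle replicate 3 stood apart, with a median signal of 143 against 71.2 to 94.6 on the other 11 arrays, and it waited 316 minutes before its scan, as KO RA replicate 1 waited 238 minutes and the other 10 arrays 13 to 59. The background level of an array was the 95th percentile of 84 probe sets for olfactory, vomeronasal and taste receptors; it was 234 on that array and 61.9 to 100 on the others. Rarg itself did not check the labels: its probe sets differed by 0.16 and 0.093 log2 between KO and WT in vehicle and by 0.12 and 0.39 in RA, none past the threshold, and where they lie relative to the deletion is not given in the sources used here. All 8 F9 stem cell markers were above background, and the summed signal of 12 endoderm markers was 49930 to 70534 on the WT arrays and 4992 to 21524 on the KO-labelled arrays, with 1 or 2 of the 12 below background on all arrays of a group; the part of these markers in the differences between genotypes was not tested.

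Promoter sequences were taken from RefSeq (build GRCm38.p6, 250 bases before to 50 after the start, the window with the most CG where a gene has several), and 26 of the 32 imprinted genes have one. The hexamer TGCCGC, the core of the motif bound by ZFP57 when methylated, was searched on both strands, where its reverse complement reads GCGGCA. It is in the windows of 8 of the 26 (30.8%), namely Grb10, Meg3, Mest, Nap1l5, Nnat, Plagl1, Snrpn and Zim1, and in 12.2% of 27025 genes. The imprinted genes' windows are richer in CG than most (median 17 against 8). The hexamer is in 26.3% of genes with at least 17 CG, and in 19.7% of genes within the imprinted genes' range of 7 to 45 CG. The RA receptor motif AGGTCA or AGTTCA, repeated in the same direction with a gap of 2 or 5 bases and searched on both strands, is in none of the 26 windows and in 0.074% of genes. Windows of 4 genes whose signal differed between genotypes are shown, 3 with the hexamer (in capitals) and Dlk1, the neighbour of Meg3, without it. They are Mest at chr6:30737800-30738099 (plus strand), Meg3 at chr12:109540746-109541045 (plus), Dlk1 at chr12:109452573-109452872 (plus) and Grb10 at chr11:12037371-12037670 (minus). A match describes the letters of the window and is no measurement of binding.
Mest: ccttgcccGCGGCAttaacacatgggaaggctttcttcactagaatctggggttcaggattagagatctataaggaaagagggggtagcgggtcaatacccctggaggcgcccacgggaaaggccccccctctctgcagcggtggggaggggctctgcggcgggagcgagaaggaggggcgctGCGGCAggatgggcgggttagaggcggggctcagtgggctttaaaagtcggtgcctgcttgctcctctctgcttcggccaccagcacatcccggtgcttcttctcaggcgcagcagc
Meg3: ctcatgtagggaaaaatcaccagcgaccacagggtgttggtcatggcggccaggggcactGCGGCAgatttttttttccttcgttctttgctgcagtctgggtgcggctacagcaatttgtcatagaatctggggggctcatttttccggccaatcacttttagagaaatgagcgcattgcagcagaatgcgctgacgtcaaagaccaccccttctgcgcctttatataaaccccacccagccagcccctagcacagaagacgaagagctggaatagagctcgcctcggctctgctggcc
Dlk1: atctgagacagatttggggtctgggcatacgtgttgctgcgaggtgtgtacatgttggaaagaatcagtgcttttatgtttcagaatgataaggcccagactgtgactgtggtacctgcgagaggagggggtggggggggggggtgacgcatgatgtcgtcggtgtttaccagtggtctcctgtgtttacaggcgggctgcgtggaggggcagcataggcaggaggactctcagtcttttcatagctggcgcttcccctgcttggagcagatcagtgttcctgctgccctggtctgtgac
Grb10: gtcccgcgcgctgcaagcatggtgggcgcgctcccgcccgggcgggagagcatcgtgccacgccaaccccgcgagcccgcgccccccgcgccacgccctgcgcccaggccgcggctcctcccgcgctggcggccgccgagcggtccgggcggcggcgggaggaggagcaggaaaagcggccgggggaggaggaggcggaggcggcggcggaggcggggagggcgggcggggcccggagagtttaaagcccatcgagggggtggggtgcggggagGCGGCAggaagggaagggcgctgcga

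Most of the 30 imprinted genes gave a signal in F9 cells. The mean log2 signal of 22 of them exceeded the background level, 15 of the 19 paternally expressed, 5 of the 9 maternally expressed, and both Grb10 and Gnas. On all 12 arrays 10 were above the array's own level (Peg3, Igf2r, Grb10, Plagl1, Ndn, Mkrn3, Sgce, Impact, Gnas and Ube3a). Zim1, Asb4, Nap1l5 and Rasgrf1 were above it on no array, and Peg12 (4 arrays), Phlda2 (2), Usp29 (1) and Dcn (1) were above it on few. Levels are not compared between genes, since probe sets differ in brightness.

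The first question was which imprinted genes answer to RA, and whether they do so without RAR gamma. By limma's moderated test with adjustment over all probe sets, 0 of 30 passed in WT cells after RA, where 0.824% of all genes did. An unadjusted p under 0.05 was found for 3 of the 30 (Phlda2, Ascl2 and Sfmbt2) and for 1633 of all 18193 genes. These shares lie near each other, and the 3 are no result about the imprinted genes as a list. The median change of the 30 was 0.24 log2, with 20 higher, and that of all genes was 0.053. With the hybridization batch as a block, 2 of the 30 (6.67%) rose in WT cells, against 3.35% of all genes: Plagl1 and Peg3.

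Plagl1 encodes a zinc finger transcription factor that regulates other imprinted genes. Its signal was 9308, 10960 and 3493 in WT vehicle and 20101, 19243 and 11260 in WT RA, so each RA array was above every vehicle array. The change was 1.20 log2 (2.3-fold on the signal + 16 scale), with an adjusted p of 0.779 without the block and 8.75e-04 with it, and it was 1.68, 1.11 and 0.81 within batches 1, 2 and 3. Without WT vehicle replicate 3 the change was 0.69. KO vehicle arrays read 3815, 3409 and 781 and KO RA arrays 5136, 5623 and 1159, and the groups overlapped. The change in KO-labelled cells was 0.57 (SE 0.589, n = 3 arrays against 3, adjusted p = 0.946), and 0.56, 0.43 and 0.72 within batches 1, 2 and 3. All 3 Plagl1 probe sets had positive changes in both genotypes, none past the threshold without the block. The RA changes of the 2 genotypes were not shown to differ: the difference was -0.63 (95% interval -2.39 to 1.13).

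Peg3 encodes a large zinc finger protein of the paternally expressed Peg3 domain. It read 3404, 3345 and 1426 in WT vehicle and 4194, 4137 and 2779 in WT RA, with replicate 3 lowest in both groups and some overlap between them. The change was 0.52, with an adjusted p of 0.908 without the block and 0.0308 with it, and within batches it was 0.95, 0.30 and 0.31. Without WT vehicle replicate 3 the change was 0.11, and with only batches 2 and 3 and the batch as a block it did not pass (adjusted p = 0.0829). In KO-labelled cells Peg3 read 2912, 2738 and 1425 in vehicle and 3657, 3351 and 1562 in RA, a change of 0.25 (SE 0.353, n = 3 arrays against 3, adjusted p = 0.96).

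Sfmbt2, a polycomb-group gene expressed from the paternal allele, had the smallest spread among the genes with an unadjusted p under 0.05. It read 122, 125 and 61.2 in WT vehicle and 237, 170 and 158 in WT RA, and 151, 105 and 117 and 187, 245 and 188 in the KO-labelled groups. The RA arrays were above the vehicle arrays in both genotypes, but the changes of 0.81 (adjusted p = 0.66) and 0.67 (adjusted p = 0.85) did not pass. Another Sfmbt2 probe set above background went the other way, by -0.27 in WT and -0.44 in KO-labelled cells.

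After RA in KO-labelled cells, 0 of 30 passed without the block and 0 with it, by the same test, against 0.148% and 0.495% of all genes. Without the block, 0 of the 30 had an unadjusted p under 0.05, against 1180 of all 18193 genes. The difference of the RA changes between genotypes passed for 0 of 30 in either fit, against 0% and 0.0879% of all genes. Without the block, 1 of the 30, Phlda2, had an unadjusted p under 0.05, against 865 of all 18193 genes. The intervals of the fit without the block set the size that this fit could have missed. For Igf2r, the receptor that clears Igf2, the change after RA lay between -0.24 to 0.58 log2 in WT and -0.36 to 0.46 in KO-labelled cells. For Grb10 the intervals were -0.58 to 0.28 and -0.23 to 0.64, and for Mest -0.29 to 1.02 and -0.81 to 0.50. In that fit the interval of Kcnq1ot1 in WT cells was far wider, -1.77 to 1.53. Its SE was 0.782 there and 0.162 with the hybridization batch as a block. Its changes within batches 1, 2 and 3 were 0.13, -0.19 and -0.29.

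**Figure D1:**
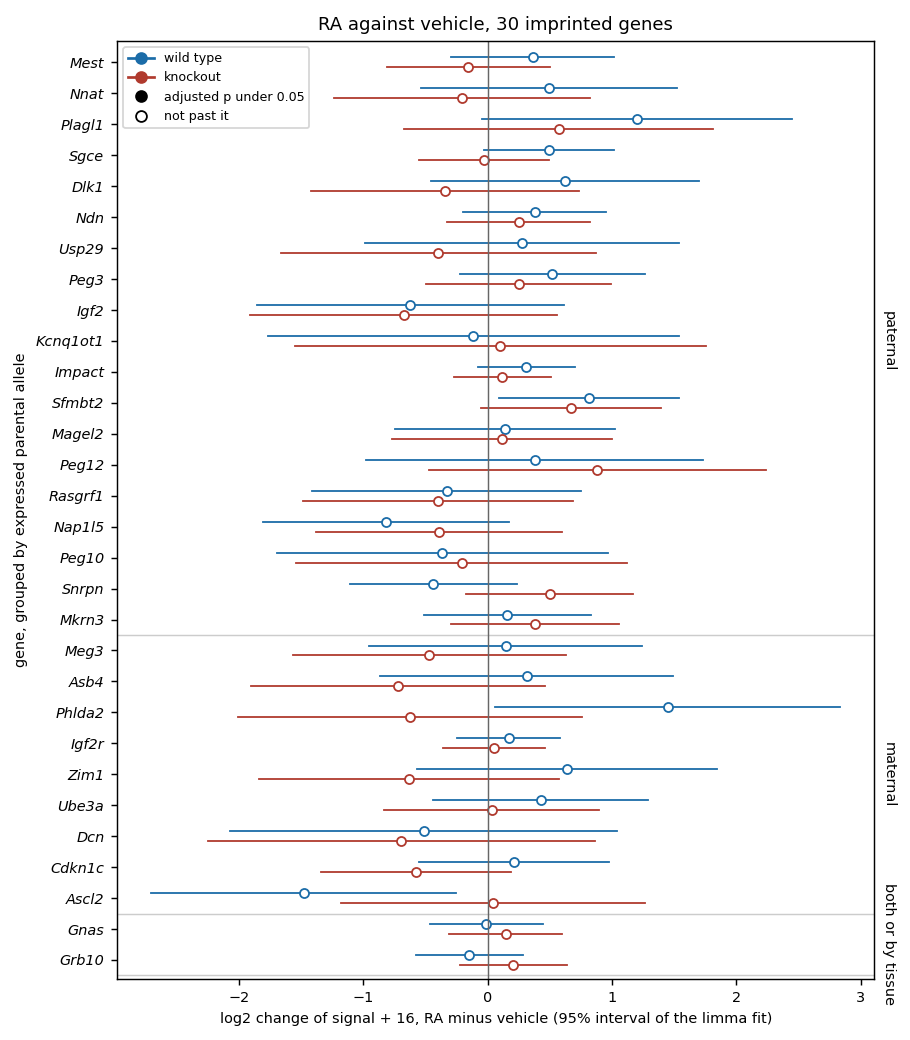
Change of each of the 30 measured imprinted genes after RA, as log2 of signal + 16, in wild-type (blue) and KO-labelled (red) cells, with points for the change and lines for the 95% interval of the limma fit, grouped by expressed allele. All points are open, since 0 of 30 passed an adjusted p of 0.05 in either genotype. The widest interval is that of Kcnq1ot1 (-1.77 to 1.53 in wild-type cells), whose mean signal was above background. The fit shown has no block, and the SE of Kcnq1ot1 was 0.782 in it, against 0.162 with the hybridization batch as a block.

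The second question was how cells labelled RAR gamma knockout differ from wild type. In vehicle, Mest, Sgce, Nnat and Meg3 were lower in the KO-labelled cells, and Cdkn1c and Grb10 were higher. In RA the same 4 were lower together with Plagl1 and Dlk1, and Grb10 and Ascl2 were higher. In RNA from whole cultures, fewer cells expressing a gene and less RNA per cell cannot be told apart.

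These were 6 of 30 in vehicle (20% of the imprinted genes, against 6.42% of all genes) and 8 of 30 in RA (26.7%, against 7.55%). With the hybridization batch as a block, 10 of 30 passed in each comparison (33.3%, against 13.5% of all genes in vehicle and 14.5% in RA); 3 were higher and 7 lower in vehicle, and 2 were higher and 8 lower in RA. The groups did not overlap for 10 of the 30 in vehicle, against 24.1% of all genes, and for 14 in RA, against 28.3%. The median absolute change was 0.51 in vehicle, against 0.37 for all genes, and 0.53 in RA, against 0.34. Counted by allele, 0 of the 19 paternally expressed genes were higher and 3 were lower in vehicle, and 0 were higher and 5 lower in RA. Of the 9 maternally expressed genes, 1 was higher and 1 lower in each comparison. Of all 18193 genes, 438 were higher and 730 lower in vehicle, and 594 were higher and 779 lower in RA. Higher calls were thus few among all genes too, and a difference between the alleles was not tested. Both comparisons rest on the same 2 genotypes but on separate arrays, and they share no array.

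**Figure D2:**
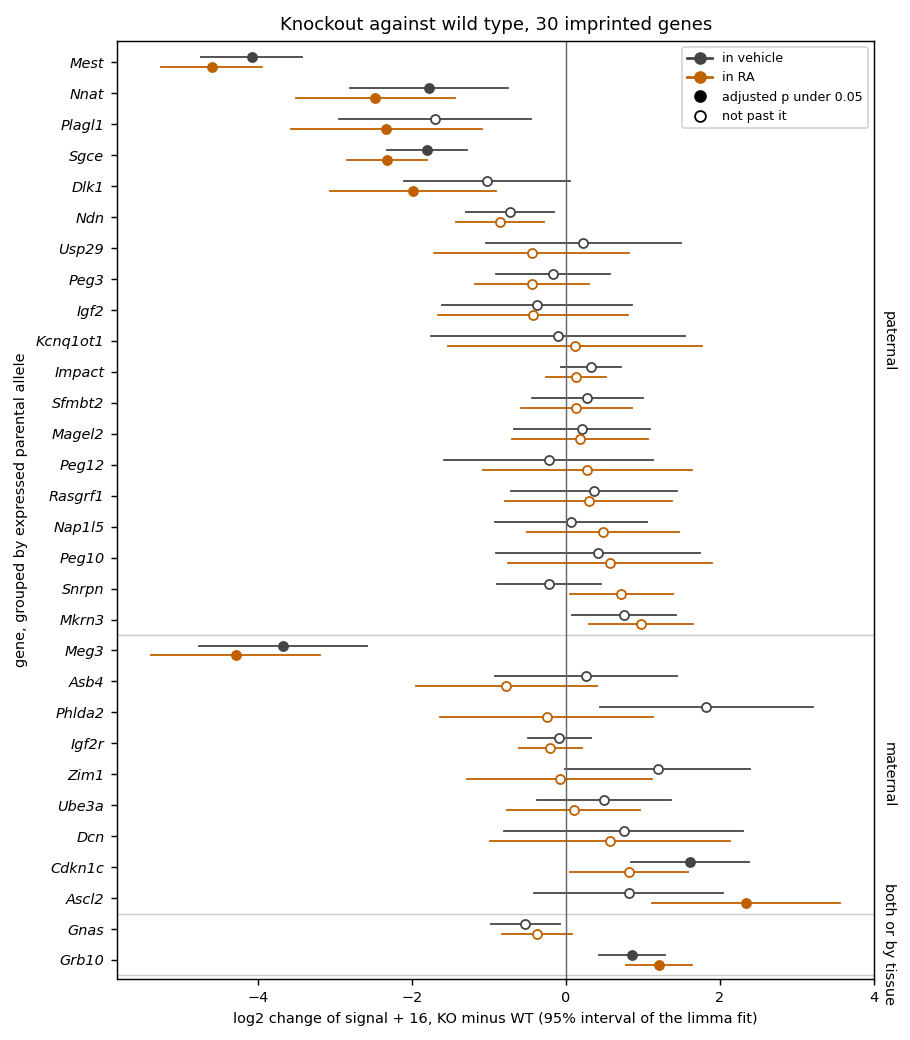
Difference between KO-labelled and wild-type cells for each of the 30 measured imprinted genes, as log2 of signal + 16, in vehicle (grey) and in RA (orange), with 95% intervals of the limma fit and filled points for an adjusted p under 0.05. Mest and Meg3 lie farthest to the left, at -4.08 and -3.68 in vehicle and -4.60 and -4.29 in RA, and Grb10 is filled on the right in both.

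Mest, a paternally expressed gene for a hydrolase-fold protein first named for its expression in mesoderm, had the largest difference of the 30. Its signal was 2268, 2109 and 1388 in WT vehicle and 3223, 2677 and 1646 in WT RA. The KO-labelled groups read 113, 135 and 55.8 with vehicle and 65.4, 114 and 79.2 with RA. Every KO-labelled array was far below every WT array, and 4 of the 6 stayed above their own background level. The difference was -4.08 (SE 0.31, n = 3 arrays against 3, adjusted p = 8.12e-07) in vehicle and -4.60 (SE 0.31, n = 3 arrays against 3, adjusted p = 2.41e-07) in RA, or 17-fold and 24.3-fold lower on the signal + 16 scale. Batches 1, 2 and 3 gave differences of -4.29, -4.15 and -3.81 in vehicle, and -4.13, -5.31 and -4.37 after RA.

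Sgce, which encodes epsilon-sarcoglycan, a membrane protein, shares an imprinted domain with Peg10. It read 1811, 1605 and 1558 in WT vehicle and 2259, 2696 and 2083 in WT RA, against 489, 602 and 335 in KO vehicle and 699, 406 and 323 in KO RA. All 12 arrays were above background, and the highest KO-labelled array was well below the lowest WT array. Sgce fell by 1.80 log2 in vehicle (SE 0.248, adjusted p = 3.34e-04) and by 2.33 in RA (SE 0.248, adjusted p = 2.06e-05), which is 3.49-fold and 5.02-fold. Its neighbour Peg10, derived from a retrotransposon and needed for the mouse placenta, did not pass, with 0.42 (95% interval -0.91 to 1.75) and 0.57 (-0.76 to 1.90). Asb4, the only maternally expressed gene of that domain among the imprinted genes followed here, stayed below background.

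Nnat encodes neuronatin, a small membrane proteolipid. The WT arrays read 134, 115 and 181 in vehicle and 180, 156 and 301 in RA, all above background, and the KO-labelled arrays 26.2, 31.3 and 32.1 and 37.5, 44.3 and 3.21, all at or below it. Nnat was therefore at least 1.33-fold lower in vehicle, where the bound is weakened by the high background of KO vehicle replicate 3, and at least 3-fold lower in RA. The bounds set each array's background level against the signal. The fitted differences were -1.78 (SE 0.488, n = 3 arrays against 3, adjusted p = 0.0481) and -2.48 (SE 0.488, n = 3 arrays against 3, adjusted p = 0.0049); the vehicle call was lost when any 1 of 11 arrays was left out, all but KO RA replicate 3, with an adjusted p of 0.0506 to 0.159 (0.0795 without KO vehicle replicate 3).

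Dlk1, a transmembrane protein with EGF repeats that acts on Notch signalling, is the paternally expressed gene of the Dlk1-Meg3 domain on chromosome 12. Its WT arrays read 70.7, 123 and 125 in vehicle and 175, 178 and 150 in RA, each above background. The KO-labelled arrays read 18.3, 32.5 and 105 in vehicle and 13.3, 35.8 and 48.4 in RA, none above background. In RA the groups did not overlap, and Dlk1 was at least 2.46-fold lower in KO-labelled cells (fitted difference -1.99 (SE 0.51, n = 3 arrays against 3, adjusted p = 0.0299)). That call was lost without any 1 of WT RA replicates 1, 2 and 3 or KO RA replicates 1 and 2, where the adjusted p was 0.0679 to 0.137. It was also lost with the mean of all Dlk1 probe sets. Both Dlk1 probe sets had negative differences in RA, and 1 passed. In vehicle the groups overlapped, since KO vehicle replicate 3 read 105, and the difference of -1.03 did not pass (adjusted p = 0.339).

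Meg3, the maternally expressed long noncoding RNA of the same domain, read 1511, 1880 and 648 in WT vehicle and 1532, 1498 and 1089 in WT RA. In KO vehicle it read 18, 131 and 166, and in KO RA 69.8, 80.3 and 25.8. No KO-labelled array reached the lowest WT array, and 2 of the 6 were above their own background level. The difference was -3.68 (SE 0.519, n = 3 arrays against 3, adjusted p = 4.04e-04) in vehicle and -4.29 (SE 0.519, n = 3 arrays against 3, adjusted p = 6.83e-05) in RA; no fold is given, since 1 of the 3 arrays in each KO-labelled group was above background. Batch 1 gave a smaller value in vehicle than the others (-1.86, -5.49 and -3.68 in batches 1, 2 and 3), and in RA the 3 batches gave -4.73, -4.17 and -3.97. Of all 11 Meg3 probe sets, whatever their signal, 9 had a negative difference in vehicle and 11 in RA, and 5 passed in each. Rian, a further maternally expressed noncoding RNA of that domain, read 291, 368 and 540 in WT vehicle and 11, 65 and 38.1 in KO vehicle, and 275, 330 and 431 against 36, 7.15 and 27.5 in RA. It was at or below background on every KO-labelled array, at least 3.64-fold lower in vehicle (adjusted p = 7.93e-04) and at least 4.99-fold lower in RA (adjusted p = 3.11e-04). In RA the signals of Dlk1, known as paternally expressed, and of Meg3 and Rian, known as maternally expressed, were thus all lower in KO-labelled cells. The Dlk1 call depended on single arrays, as given above, and the allele behind each signal was not measured.

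Plagl1 was lower in KO-labelled cells in RA by -2.33 (SE 0.589, adjusted p = 0.0275), 5.04-fold on the signal + 16 scale, with no overlap between the groups given above. In vehicle the groups overlapped, because WT vehicle replicate 3 was low, and the difference of -1.70 had an adjusted p of 0.133 without the block and 3.19e-06 with it. Batches 1, 2 and 3 gave -2.14, -1.28 and -1.68 in vehicle, and -3.26, -1.97 and -1.77 after RA, all negative. Without KO vehicle replicate 3 the vehicle difference was -0.97; without WT vehicle replicate 3 it passed (-2.21, adjusted p = 0.047), and the RA call was lost without WT RA replicate 1, WT RA replicate 2 or KO RA replicate 3 (adjusted p of 0.111 to 0.138). The RA call was also lost with arrays centred on their median, without the intensity trend and with the mean of all Plagl1 probe sets. The 3 Plagl1 probe sets all had negative differences, and the other 2 did not pass.

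**Figure D3:**
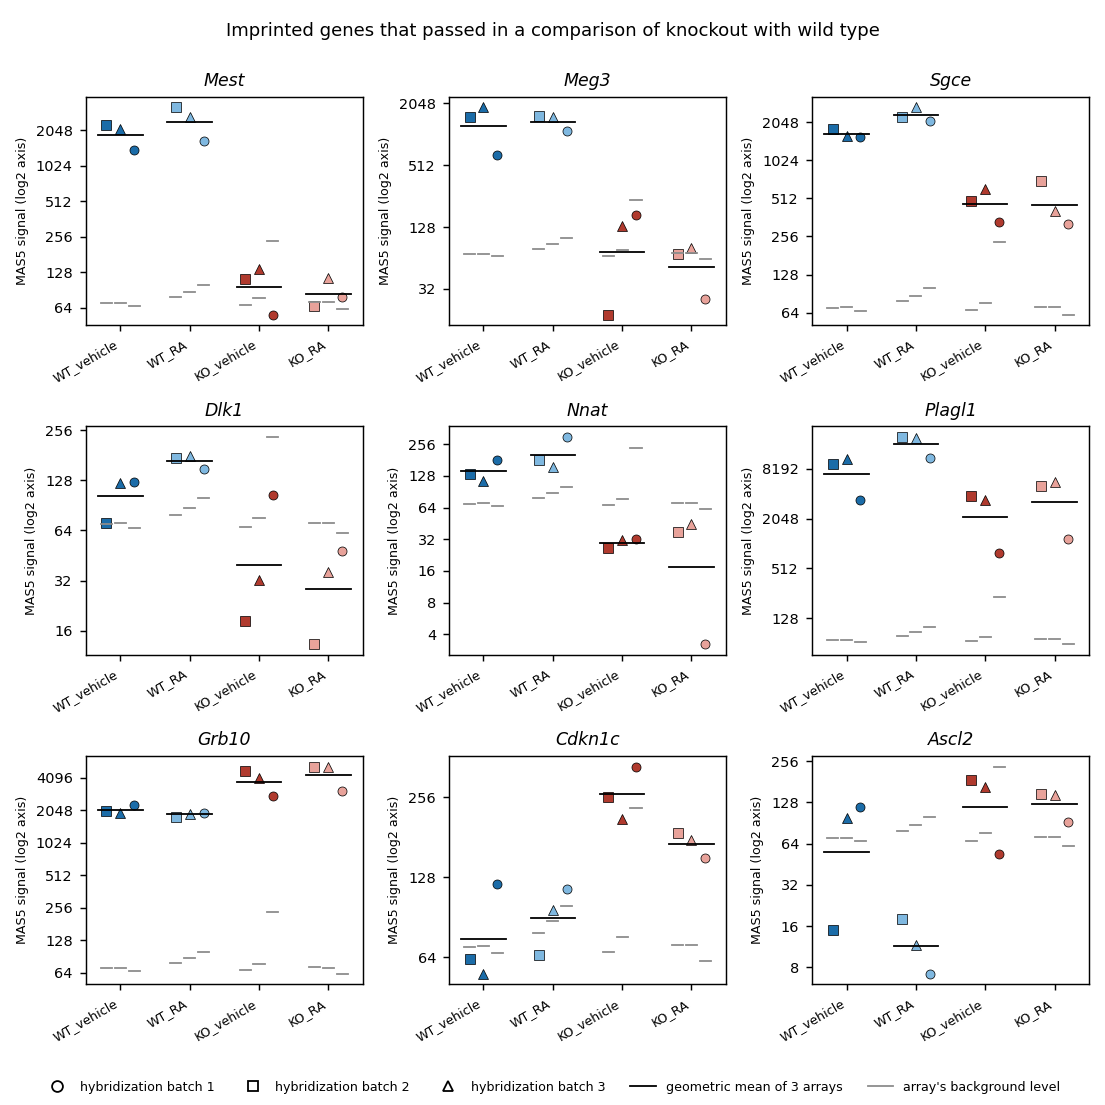
MAS5 signal on each of the 12 arrays (log2 axis) for the 9 imprinted genes that passed in a comparison of KO-labelled with wild-type cells, with symbols for the 3 hybridization batches, black lines for the geometric mean of 3 arrays and grey ticks for each array's background level. The KO-labelled arrays of Mest lie between 55.8 and 135 against 1388 to 3223 in wild type, and those of Grb10 between 2773 and 5190 against 1782 to 2272.

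The Snrpn domain holds several paternally expressed genes read here. Ndn, the growth suppressor necdin, read 1725, 1756 and 3668 in WT vehicle and 1329, 1313 and 1388 in KO vehicle, and 2452, 2455 and 4061 against 1244, 1461 and 2239 in RA, with no overlap within either treatment. The differences of -0.73 (adjusted p = 0.174) and -0.86 (adjusted p = 0.0912) passed with the batch as a block, at 0.00257 and 4.43e-04, and the RA difference also without WT vehicle replicate 3 (adjusted p = 0.0163) or KO RA replicate 3 (0.0376). Of all 8 Ndn probe sets, whatever their signal, 5 had a negative difference in vehicle and 6 in RA. The vehicle difference of Ndn was -0.37 without WT vehicle replicate 3. Mkrn3, a makorin RING-finger gene of the same domain, read 159, 128 and 84 in WT vehicle, 106, 173 and 136 in WT RA, 182, 204 and 264 in KO vehicle and 240, 268 and 354 in KO RA. Each of its 6 KO-labelled arrays was above all 6 WT arrays, but 0.76 (adjusted p = 0.24) and 0.98 (adjusted p = 0.102) did not pass in either fit, with 0.0515 in RA with the block. Snrpn, the spliceosomal protein SmN, read 125, 210 and 200 in WT vehicle, 107, 140 and 129 in WT RA, 159, 178 and 113 in KO vehicle and 206, 258 and 188 in KO RA. Its differences were -0.22 (95% interval -0.89 to 0.45) in vehicle and 0.72 (0.047 to 1.39, adjusted p = 0.287) in RA. Magel2, a MAGE-family partner of ubiquitin ligases, gave 0.21 and 0.19 and did not pass, and Peg12 had a mean below background.

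Igf2, the fetal growth factor, read 193, 212 and 173 in WT vehicle and 116, 162 and 162 in KO vehicle, and 205, 31 and 222 against 127, 160 and 24.8 in RA. The WT vehicle arrays were just above the KO vehicle arrays, while 1 array in each RA group was low. The differences of -0.37 (95% interval -1.61 to 0.86) and -0.42 (-1.66 to 0.81) did not pass, and the intervals are wide. Impact, an inhibitor of the stress kinase GCN2, read 2599, 3053 and 1846 in WT vehicle, 2993, 2964 and 3163 in WT RA, 3598, 3328 and 2410 in KO vehicle and 3423, 3621 and 2973 in KO RA. Its intervals were among the narrowest, -0.065 to 0.71 in vehicle and -0.26 to 0.52 in RA. Peg3 differed by -0.17 in vehicle and -0.44 in RA, where the adjusted p was 0.674 without the block and 0.0274 with it. The RA difference was -0.056 without KO RA replicate 3 and -0.67 without KO RA replicate 1, and with only batches 2 and 3 and the block its adjusted p was 0.0768. The other paternally expressed genes, Sfmbt2, Kcnq1ot1, Peg12, Usp29, Rasgrf1 and Nap1l5, did not pass in either comparison or fit, and the means of the last 4 were below background.

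Among maternally expressed genes, Cdkn1c, the cell cycle inhibitor p57 of the Kcnq1ot1 domain, was higher in KO-labelled cells. It read 63.2, 55.3 and 121 in WT vehicle and 65.1, 96.6 and 116 in WT RA, and 258, 212 and 335 in KO vehicle and 188, 176 and 152 in KO RA. All KO-labelled arrays were above all WT arrays, and 3 of the 6 WT arrays were above background. The difference in vehicle was 1.61 (SE 0.362, n = 3 arrays against 3, adjusted p = 0.0155), and that in RA was 0.82 (adjusted p = 0.285). No fold is given in vehicle, since only 1 of the 3 WT vehicle arrays was above background. The vehicle call was lost without WT vehicle replicate 1 or 2 or KO vehicle replicate 1 or 3 (adjusted p of 0.0501 to 0.0695). It was also lost with arrays centred on their median and with the chip lot as a block. The same held with only the groups compared and without the 2 arrays that waited longest.

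Ascl2, a basic helix-loop-helix factor needed for the mouse spongiotrophoblast, lies in the same domain. Its signal was 15, 97.9 and 118 in WT vehicle, 18.2, 11.6 and 7.14 in WT RA, 186, 166 and 54.1 in KO vehicle and 146, 144 and 92 in KO RA. All WT RA arrays were below background and all KO RA arrays above it, so Ascl2 was at least 1.41-fold higher in KO-labelled cells in RA (fitted difference 2.34 (SE 0.579, n = 3 arrays against 3, adjusted p = 0.0244)). The vehicle groups overlapped (0.81, adjusted p = 0.535), and the RA call was lost without any 1 of the WT RA arrays or of KO RA replicates 1 and 2 (adjusted p of 0.0597 to 0.0952). It was also lost with the mean of all Ascl2 probe sets, without the intensity trend and without the 2 arrays that waited longest. All 3 Ascl2 probe sets had positive differences in RA, and 1 of them passed. Of the 9 trophoblast markers measured, 0 were called in vehicle and 1 (Tfap2c, 1.59) was higher in RA, against 6.42% and 7.55% of all genes. Their summed signal was 1703 to 2298 in WT RA and 1866 to 2407 in KO RA.

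Phlda2, which restrains placental growth in the mouse, had a mean below background and was above its array's level on 2 arrays. It read 4.74, 5.25 and 31.1 in WT vehicle and 70.1, 29.1 and 220 in KO vehicle, and 52, 53.1 and 73.4 against 11.2, 57.3 and 109 in RA. In vehicle it passed with the batch as a block only (adjusted p = 0.0469, against 0.153 without), and the difference went from 1.82 to 1.18 without KO vehicle replicate 3. Igf2r read 1092, 854 and 1376 in WT vehicle, 1146, 1120 and 1421 in WT RA, 1128, 985 and 962 in KO vehicle and 1233, 1135 and 849 in KO RA, and its differences of -0.087 (-0.50 to 0.32) and -0.20 (-0.61 to 0.21) were small with narrow intervals. Zim1, Dcn and Asb4 were below background on average and did not pass.

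Grb10 encodes an adaptor that dampens insulin and IGF receptor signalling and is expressed from the maternal allele in most mouse tissues and from the paternal allele in neurons. It read 2029, 1932 and 2272 in WT vehicle and 1782, 1890 and 1931 in WT RA, and 4696, 4094 and 2773 in KO vehicle and 5088, 5190 and 3098 in KO RA. Each KO-labelled array was above each WT array, with replicate 3, from batch 1, lowest in both KO-labelled groups. Grb10 rose by 0.86 in vehicle (SE 0.204, adjusted p = 0.0221) and by 1.21 in RA (SE 0.204, adjusted p = 0.0014), or 1.81-fold and 2.32-fold. Batches 1, 2 and 3 gave 0.29, 1.20 and 1.08 in vehicle, and 0.68, 1.51 and 1.45 after RA. All 3 Grb10 probe sets were higher in both comparisons, 2 of them past the threshold. The vehicle call was lost without WT vehicle replicate 1 or 2 or KO vehicle replicate 1 or 2 (adjusted p of 0.0736 to 0.106). It was also lost with arrays centred on their median, without the intensity trend and with the chip lot as a block. The RA call was kept under all 27 alternatives.

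Gnas, a complex locus whose main product is the stimulatory G protein alpha subunit, read 10578, 10388 and 10782 in WT vehicle, 11503, 10780 and 9329 in WT RA, 8635, 8911 and 5136 in KO vehicle and 10492, 8808 and 5770 in KO RA. The KO vehicle arrays were all below the WT vehicle arrays, with replicate 3 lowest. The difference of -0.53 passed only with the batch as a block (adjusted p = 0.0206, against 0.22 without), and its sign turned to 0.32 when all Gnas probe sets were averaged. Without KO vehicle replicate 3 it was -0.27. The locus makes several transcripts, and its probe sets above background ranged from -0.53 to 0.99 in vehicle.

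Some imprinted genes differed more between batches than between groups. Kcnq1ot1, the noncoding RNA that silences its domain in cis, read 1364, 1291 and 232 in WT vehicle, 1191, 1054 and 256 in WT RA, 1255, 1385 and 188 in KO vehicle and 1136, 1364 and 266 in KO RA. Its 4 arrays of batch 1 lay between 188 and 266 and the other 8 between 1054 and 1385. Ube3a, the ubiquitin ligase imprinted in neurons, read 4650, 5036 and 1072 in WT vehicle, 4692, 4689 and 2791 in WT RA, 4716, 4893 and 3059 in KO vehicle and 4652, 4782 and 3388 in KO RA, again with batch 1 lowest in every group. Peg10 read 31.7 to 81.2 in batch 1 and 94.5 to 266 in the other batches. These 3 of the 30 had all batch 1 arrays below all others, as did 2.83% of all genes, and none of them passed between treatments or genotypes. What set batch 1 apart was not tested.

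**Figure D4:**
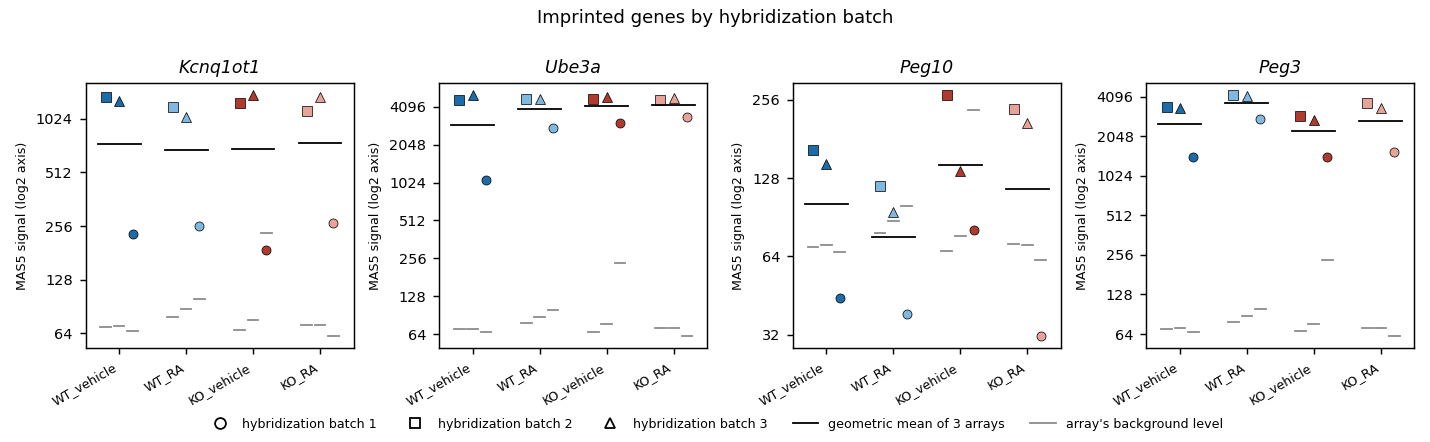
MAS5 signal on each array (log2 axis) for Kcnq1ot1, Ube3a, Peg10 and Peg3 by group, with circles for hybridization batch 1, squares for batch 2 and triangles for batch 3, black lines for the geometric mean and grey ticks for each array's background level. The circles of Kcnq1ot1 lie between 188 and 266 in all 4 groups and its other symbols between 1054 and 1385, whereas the Peg3 circles overlap the other batches at 2779 in WT RA.

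A longer list of other imprinted genes was read in the same comparisons. Of 49 listed, 40 were measured; 2 were higher (Slc38a4 and Gab1) and 2 lower (Rian and Pon2) in KO-labelled cells in vehicle, and 2 were higher (the same) and 3 lower (with Dlx5) in RA, and 0 passed after RA in either genotype by the fit without a block. These 4 and 5 of 40 lie near the share of all genes that passed (6.42% in vehicle and 7.55% in RA) and are no result about the list. Slc38a4, a paternally expressed amino acid transporter, read 48.4, 65.4 and 31.2 in WT vehicle and 90.5, 8.47 and 78.7 in WT RA, against 1865, 1839 and 1909 in KO vehicle and 2047, 2077 and 2380 in KO RA. It was at or below background on 5 of 6 WT arrays and at least 27.2-fold higher in KO-labelled cells in vehicle (adjusted p = 1.76e-06), and in RA, where 2 of the 3 WT arrays were at or below background, the difference also passed (adjusted p = 1.07e-06). Pon2, a paraoxonase imprinted in the placenta, was 509 ± 141 (mean ± SD of 3 arrays) in WT vehicle and 256 ± 30.6 in KO vehicle, a difference of -0.92 (SE 0.242, n = 3 arrays against 3, adjusted p = 0.0389), and -1.44 (adjusted p = 0.0014) in RA. The median change over the 40 was 0.17 in vehicle and -0.0065 in RA, against 0.13 and -0.045 for all genes.

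Among regulators of imprints, 23 of 24 listed were measured, and 3 passed between genotypes in each comparison, where 6.42% of all genes passed in vehicle and 7.55% in RA. Dnmt3l, the cofactor of de novo methylation needed for maternal imprints in the mouse oocyte, read 1457, 1548 and 1952 in WT vehicle and 9358, 9499 and 5529 in KO vehicle, and 1023, 988 and 902 against 7042, 6341 and 4608 in RA. Its groups were far apart, and the difference was 2.26 (SE 0.205, n = 3 arrays against 3, adjusted p = 4.54e-06) in vehicle and 2.59 (SE 0.205, n = 3 arrays against 3, adjusted p = 1.07e-06) in RA. Dnmt3a, a de novo DNA methyltransferase, was lower, with 3443, 2238 and 2912 against 985, 1129 and 874 in vehicle (-1.50, adjusted p = 9.90e-05) and 2871, 2587 and 3354 against 1556, 1205 and 1641 in RA (-0.998, adjusted p = 0.00267). Kdm1b, a histone H3K4 demethylase, was higher in vehicle (0.96, adjusted p = 0.0112), and Trim28, the corepressor that ZFP57 recruits, was higher in RA (0.58, adjusted p = 0.0275). After RA in WT cells 0 of the 23 passed without the block, and with it, where 3.35% of all genes passed, 4 were lower: Dnmt3b (-1.06, adjusted p = 3.97e-05), Tet1 (-0.92, 1.18e-04), Uhrf1 (-0.70, 0.00105) and Dnmt3l (-0.75, 0.0132). DNA methylation itself was not measured.

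**Figure D5:**
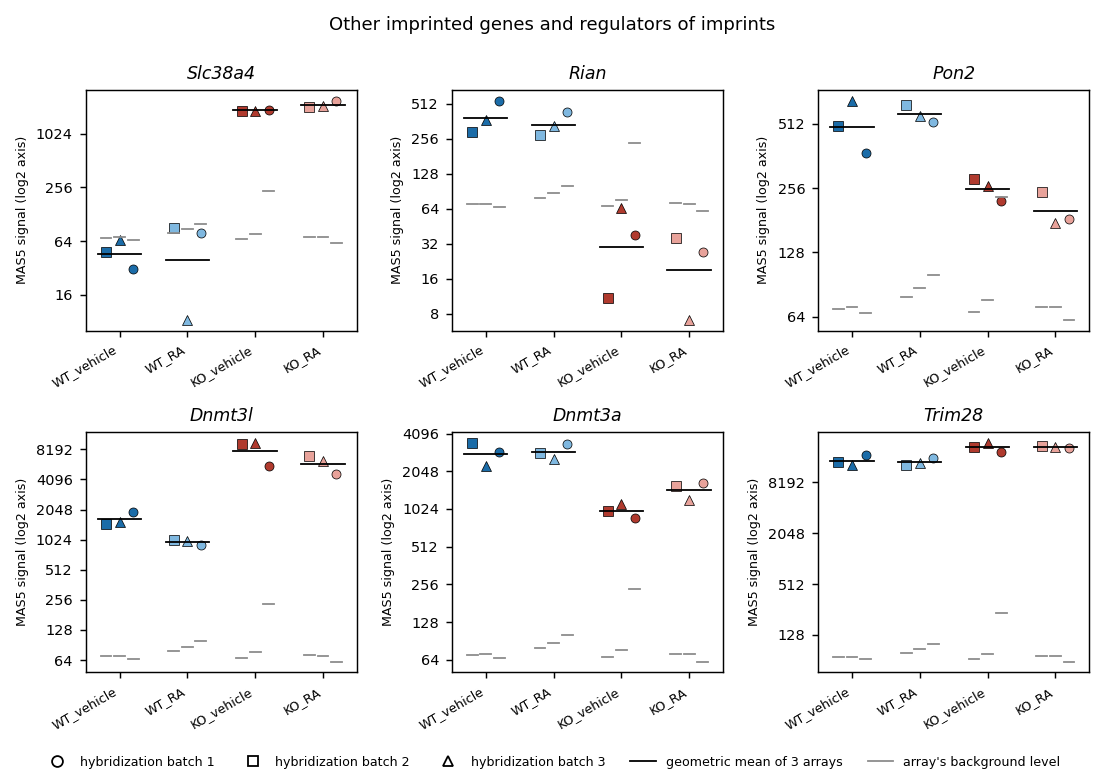
MAS5 signal on each array (log2 axis) for 3 further imprinted genes (Slc38a4, Rian and Pon2) and 3 regulators of imprints (Dnmt3l, Dnmt3a and Trim28), with symbols for hybridization batches, black lines for the geometric mean and grey ticks for each array's background level. Slc38a4 lies between 1839 and 2380 on the KO-labelled arrays and at 90.5 or below in wild type, while Rian and Dnmt3a lie lower on every KO-labelled array.

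Of 15 genes of the insulin-like growth factor pathway in which Igf2, Igf2r and Grb10 act, 14 were measured, and 0 passed after RA in either genotype. Igfbp2, a secreted IGF-binding protein, was higher in KO-labelled cells, with 12423, 12203 and 16242 in WT vehicle and 22746, 24721 and 18442 in KO vehicle (0.69, adjusted p = 0.0171), and 1.08 in RA (adjusted p = 4.05e-04). In RA, 2 RNA-binding proteins named for binding Igf2 mRNA moved in opposite directions, Igf2bp1 by 0.60 (adjusted p = 0.0492) and Igf2bp3 by -1.26 (adjusted p = 0.00415). Among the marker lists, 8 of 12 endoderm markers were lower in KO-labelled cells in each comparison, where 6.42% of all genes passed in vehicle and 7.55% in RA. Of 8 F9 stem cell markers, 3 were higher in vehicle and 6 in RA, and 2 of 10 neural markers were higher in each. The summed signal of the stem cell markers was 81103 to 117754 on WT and 126757 to 155361 on KO-labelled arrays, and that of the neural markers 1928 to 2597 and 4606 to 7523, with 4 of 10 below background on all arrays of each WT group and 3 in each KO-labelled group. Stmn2 and Tubb3 made up most of the neural sum, and without them it was 579 to 965 on WT and 862 to 1156 on KO-labelled arrays, ranges that overlapped. Of 9 fibroblast and muscle markers and 8 blood markers, 0 passed in either comparison without the block. The part of these differences in cell state in the changes of the imprinted genes was not tested.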

How the data were processed

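RNA of F9 cells was hybridized to 12 Affymetrix mouse expression arrays, 3 in each of 4 groups taken from the source labels. The deposited values are linear intensity signals that the authors made with MAS5, per the submitters' processing notes, and each array has a trimmed mean of 500; probe-level data were not used here. From these, log2(signal + 16) was fitted over all 45037 probe sets that are not controls with limma 3.58.1 in R 4.3.3 (lmFit, eBayes with intensity trend, 4 groups, 8 residual degrees of freedom, or 6 with hybridization batch as a block), with Benjamini-Hochberg adjustment over all of them in each of 5 comparisons and a threshold of 0.05. Fold changes are on the signal + 16 scale and understate those of dim genes. Of the probe sets, 34945 name 1 symbol, 932 several and 9160 none; only the first were named, 1 probe set a gene (18193 genes). Where every array of a group lay at or below its own background level, a fold is given as a bound. No 2 arrays shared more than 0.00222% of their values, and arrays of a group correlated at 0.915 to 0.975. The batch block is given because same-batch arrays deviated together; the labels give no pairing. The imprinted genes and all other lists were chosen with earlier results of these data known. Values are given in full for genes called in either fit, for the 8 with the highest mean signal and for Igf2, Igf2r, Cdkn1c, Grb10, Meg3, Dlk1, Peg3, Mest and Snrpn; of each other list up to 3 genes with the smallest adjusted p were to be named, and Gab1, Dlx5, Trim28 and genes named as passing only with the block were added after their values were seen. Alternatives changed the offset, scaling, filter, variance model, blocks, probe set and arrays. The fit was tested on simulated data.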

Additional observations from a re-analysis of the deposited data

How the results depend on the processing

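In all, 27 alternatives were run. Mest, Meg3 and Sgce in both comparisons of genotypes, and Nnat and Grb10 in RA, kept direction and call under all 27. The count of imprinted genes passing after RA in WT cells went from 0 to 2 with the hybridization batch as a block (also without KO vehicle replicate 3). It was also 2 with the kind of title code as a block, and with only batches 2 and 3 and the batch as a block (chosen after seeing the data). Sample titles of batch 1 start with a letter and those of batches 2 and 3 with a number. The title code block thus sets batch 1 against the others and is no separate check. The 2 were Plagl1 and Peg3, but Plagl1 and Ndn with only batches 2 and 3. That last fit gave 1 in KO-labelled cells, Plagl1. For KO against WT in vehicle the 6 became 10 with the batch or title code as a block. They became 3 (Mest, Meg3 and Sgce) with the chip lot, partly confounded with genotype there, as a block. Leaving out 1 array gave 3 to 6, with the same 3 without WT vehicle replicate 1, WT vehicle replicate 2 or KO vehicle replicate 1. In RA the 8 became 5 to 9 when 1 array was left out and 6 to 11 under the other alternatives, with 5 without WT RA replicate 1 or 2. Centring each array on its median shifted the median of all genes by -0.22 in vehicle, 0.13 in RA, 0.25 for RA in KO-labelled cells and 0.34 for the difference of the RA changes, and quantile normalization by -0.10 in vehicle and 0.11 for that difference; in vehicle centring left 0 higher and 4 lower, against 2 and 4. Of the 22 differences of single genes, 508 of the values under alternatives kept their side of the threshold, 53 lost it, 31 gained it and 1 reversed (Gnas in vehicle, 0.32 with the mean of all probe sets, against -0.53). Fitting only the groups compared gives no value for the difference of the RA changes. The labels share no replicate number between groups, and the batch block stands in for a paired analysis. For 8 of the 30 genes, mostly at or below background, differences could be missed at this signal.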
